A study of Mus musculus with 12 samples.

Results

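The replication-dependent histone genes encode the core histones H2A, H2B, H3 and H4 and the linker histone H1 that package newly made DNA. They were taken as every gene in the deposited table whose name begins with Hist1h, Hist2h, Hist3h or Hist4h, in upper or lower case. This gave 65 of 38339 genes, namely 6 of H1, 20 of H2A, 19 of H2B, 7 of H3 and 13 of H4. By name, 51 of them belong to Hist1, 10 to Hist2, 3 to Hist3 and 1 to Hist4.

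RNA was measured in bone marrow cells of recipient mice carrying transplanted primary T-ALLs (T-lineage acute lymphoblastic leukemia, which arises from developing T cells), on a C57BL/6 x 129Sv/Jae F1 background. The DEX group was 6 moribund recipients given dexamethasone, a synthetic glucocorticoid, 4 hours before euthanasia, and the VEH group was 6 moribund recipients given vehicle 4 hours before. Each of 6 leukemias gave 1 DEX and 1 VEH library, each from a single recipient, and they are numbered here as leukemias 1 to 6 by accession order. Red cells were lysed but no leukemia sort is described, so the libraries hold marrow cells of the host as well, and fewer cells of a type cannot be told apart from less RNA per cell.

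Replication-dependent histone genes are expressed mainly in S phase, when DNA is copied. Most of their mRNAs have no poly(A) tail and end in a conserved stem-loop that is bound by the protein SLBP, which governs their processing, translation and decay. The libraries were made from total RNA with a stranded kit, so these tailless mRNAs were not removed by selection of poly(A).

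The stem-loop was looked up in the annotated transcripts of GENCODE M21 (GRCm38, the same assembly as the mm10 that the labels name), and 43 of 65 genes held it. Of 55385 other genes, 0.128% did. The remaining 22 histone models include some that stop near the end of the coding sequence, so a missing match says only that these letters are not in the annotated transcript. Examples of the core, given as capitals with 5 bases on each side, were chosen to show each class and the variants between classes.
Hist1h1c: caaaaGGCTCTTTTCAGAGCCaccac
Hist2h2ac: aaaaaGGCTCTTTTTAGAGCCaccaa
Hist1h2bf: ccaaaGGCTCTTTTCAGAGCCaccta
Hist1h2bk: ccaaaGGCTCTTTTAAGAGCCactaa
Hist1h3b: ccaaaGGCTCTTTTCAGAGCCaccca
Hist1h4c: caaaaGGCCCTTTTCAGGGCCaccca
Hist1h4a: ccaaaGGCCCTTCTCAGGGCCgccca
Hist1h4j: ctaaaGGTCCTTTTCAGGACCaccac
These lie at chr13:23739507-23739532 (plus strand), chr3:96220413-96220438 (minus), chr13:23573760-23573785 (minus), chr13:22036295-22036320 (plus), chr13:23752815-23752840 (plus), chr13:23698084-23698109 (minus), chr13:23760795-23760820 (minus) and chr13:21735432-21735457 (plus), all in GRCm38. The form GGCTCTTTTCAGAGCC was found in 25 genes, which were 3 of H1, 10 of H2A, 8 of H2B and 4 of H3. The form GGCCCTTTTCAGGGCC was found in 7 genes, all of H4. The form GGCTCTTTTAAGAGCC was found in 5 genes, 1 of H1, 2 of H2B and 2 of H3.

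Promoters, from 250 bases before to 50 bases after the start, were available from RefSeq (GRCm38.p6) for 56 of 65 genes. They are printed for the gene with the smallest p in each class that had a gene past the threshold of the treatment comparison. Capitals mark the motifs TATAAA (known to bind TBP), CCAAT (a box bound by the factor NF-Y), ATTTGCAT (the octamer bound by POU factors such as OCT1) and AAACACA (a box known from H1 promoters), searched on both strands.
Hist1h1b promoter: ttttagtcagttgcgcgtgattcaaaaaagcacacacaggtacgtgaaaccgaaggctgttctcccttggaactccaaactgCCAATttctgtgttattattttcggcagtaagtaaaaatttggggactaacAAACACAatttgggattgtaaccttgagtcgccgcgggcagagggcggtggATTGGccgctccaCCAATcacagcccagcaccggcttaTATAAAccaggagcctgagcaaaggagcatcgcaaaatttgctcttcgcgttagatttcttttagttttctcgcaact
Hist2h2ac promoter: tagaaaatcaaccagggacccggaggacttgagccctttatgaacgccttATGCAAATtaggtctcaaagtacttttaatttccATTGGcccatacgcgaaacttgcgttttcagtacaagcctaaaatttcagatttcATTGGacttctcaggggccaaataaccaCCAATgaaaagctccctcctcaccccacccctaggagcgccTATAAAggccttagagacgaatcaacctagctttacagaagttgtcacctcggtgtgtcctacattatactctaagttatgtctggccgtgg
Hist1h2bf promoter: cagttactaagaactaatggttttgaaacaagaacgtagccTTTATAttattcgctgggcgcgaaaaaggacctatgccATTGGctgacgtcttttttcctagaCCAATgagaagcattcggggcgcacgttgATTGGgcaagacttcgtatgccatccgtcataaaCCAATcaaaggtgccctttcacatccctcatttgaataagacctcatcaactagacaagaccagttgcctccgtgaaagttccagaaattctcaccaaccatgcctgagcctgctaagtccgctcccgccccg
Hist1h4c promoter: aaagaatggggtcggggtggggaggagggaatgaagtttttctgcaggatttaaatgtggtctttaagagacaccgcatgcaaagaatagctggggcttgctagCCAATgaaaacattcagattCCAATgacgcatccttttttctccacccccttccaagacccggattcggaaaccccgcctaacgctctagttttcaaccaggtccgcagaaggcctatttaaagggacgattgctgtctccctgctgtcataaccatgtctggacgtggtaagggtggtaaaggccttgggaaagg
These run over chr13:21780576-21780875, chr3:96220831-96221130, chr13:23574158-23574457 and chr13:23698409-23698708, all on the minus strand. CCAAT was in 47 of 56 histone promoters, against 37.4% of 32851 mouse promoters of the same length; it was in all 6 of H1, 16 of H2A, 16 of H2B and 6 of H3 and in 3 of 12 of H4. TATAAA was in 31 of 56, against 13.6% of all promoters. The octamer was in 14 of 56, 7 of H2A and 7 of H2B, against 1.74% of all promoters. Some H2A and H2B promoters overlap on opposite strands, so that a motif can count for both genes. Pairs that share an octamer in this way are Hist1h2ae with Hist1h2bg, Hist1h2ah with Hist1h2bk and Hist1h2aa with Hist1h2ba. The printed Hist1h2bf promoter likewise overlaps that of Hist1h2ad. AAACACA was in 9 of 56, of which 5 were of the 6 H1 genes, against 7.18% of all promoters. A match is a description of letters and not a site in use.

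The deposited values are FPKM (fragments scaled to gene model length and library size), without counts. Depth, estimated from the smallest values of sparse genes, was 11700000 to 36300000 fragments in 11 libraries, while for the VEH library of leukemia 2 the estimate depended on its settings and is not given. Fkbp5, a classical glucocorticoid target, averaged 633 ± 78.1 FPKM in DEX and 305 ± 47.9 FPKM in VEH libraries (SD, n = 6 each), and was higher in DEX in 6 of 6 leukemias. Of T-lineage markers, 0 of 8 were at 0 in all libraries, and their summed level was 1130 to 1849 FPKM in DEX and 1209 to 2041 FPKM in VEH libraries; 2 of 8 fell with DEX, Cd3g by 0.33 (adjusted p = 0.0141) and Lck by 0.29 (adjusted p = 0.0267), each in 6 of 6 leukemias. Across all 12358 genes with at least 1 FPKM in at least 6 of 12 libraries, 528 rose and 1147 fell with DEX. These and all adjusted p-values of genes below are from limma on log2(FPKM + 1) with leukemia as a block, adjusted by Benjamini-Hochberg over those genes at a threshold of 0.05. Every sample description of a VEH library carries an index number, as do those of the DEX libraries of leukemias 1, 3 and 4, while those of the DEX libraries of leukemias 2, 5 and 6 carry none. Results are therefore also given for these sets of 3 leukemias.

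Histone genes were higher in DEX than in VEH marrow as a group, by a small amount and unevenly between leukemias. Of the 65 genes, 60 were tested, of which 8 rose, 0 fell and 52 did not pass. Over all genes tested, 4.27% rose and 9.28% fell. The difference was above 0 for 59 of 60 histone genes, against 39.7% of all genes, and its median was 0.28 on the log2 scale, against -0.05 over all genes tested. At an unadjusted p under 0.05, 36 histone genes were higher and 0 lower, against 9.69% and 20.5% of all genes. None of the calls was kept without leukemia 2, without leukemia 4, without leukemia 5 or without leukemia 6, where 0 histone genes passed. There, 1.89% to 4.30% of all genes rose. Without leukemia 1, 4 of 61 passed, against 2.17% of all genes rising, and without leukemia 3, 20 of 61, against 3.94%. Each of the 8 lost its call under 7 to 12 of the 19 alternatives run, and the sign of none of them changed. The ranges of FPKM in the DEX and VEH groups overlapped for every one of the 60, so that 0 were separated, against 1.73% of all genes.

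The rise was not alike in all leukemias. The median difference over the 60 genes was 0.00 in leukemia 1, 0.32 in leukemia 2, -0.05 in leukemia 3, 0.28 in leukemia 4, 0.73 in leukemia 5 and 0.53 in leukemia 6. The number of genes above 0 was 30, 56, 23, 46, 59 and 57 of 60 in leukemias 1 to 6. Leukemia 1 thus had as many genes above 0 as not, leukemia 3 had more below 0 than above, and leukemias 2, 5 and 6 had nearly all above 0.

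Within leukemias 2, 5 and 6 alone, 25 of 61 tested histone genes rose, against 2.15% of all genes, and the median was 0.51, against -0.09 over all genes. Within leukemias 1, 3 and 4 alone, 0 of 60 rose by limma's adjusted p, against 3.20% of all genes. There the median was 0.08, against -0.02 over all genes. Of these 60 genes, 0 were higher and 3 lower at an unadjusted p under 0.05. No share of all genes was computed at that cut, so the 3 are not read as a fall of histone genes. A term for this difference, added after the data were seen, was larger in leukemias 2, 5 and 6 for 57 of 60 histone genes, against 41.3% of all genes, by a median of 0.46, against -0.06 over all genes. It passed the threshold for 1 histone gene, Hist1h2an (adjusted p = 0.0134), against 0.0486% of all genes, and at an unadjusted p under 0.05 for 35 of 60, against 4.26% of all genes. The missing index number and these leukemias themselves cannot be told apart.

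Other values also differed between DEX and VEH libraries by leukemia. The sum of FPKM over all genes was 1910540 in the DEX library and 1507530 in the VEH library of leukemia 2. It was 1799770 and 1556030 in those of leukemia 5, and 2019060 and 1664240 in those of leukemia 6. The DEX and VEH sums were closer in leukemia 1 (1466470 and 1485320), leukemia 3 (1725640 and 1746850) and leukemia 4 (1675310 and 1629320). Models of small RNA held 71.0% of the sum in the DEX and 64.4% in the VEH library of leukemia 2. They held 69.9% and 65.1% in leukemia 5, and 68.7% and 63.6% in leukemia 6. In leukemias 1, 3 and 4 they held 62.4% and 61.7%, 64.8% and 65.8%, and 65.0% and 65.6%. The median difference of 46 small nucleolar RNA genes, which are also made as short tailless RNAs, was 0.02, 0.79, 0.42, 0.02, 0.66 and 1.23 in leukemias 1 to 6. The histone medians in the same order were 0.00, 0.32, -0.05, 0.28, 0.73 and 0.53. The median difference of 41 small nuclear RNA genes was -0.08, 0.09, 0.25, 0.36, 0.18 and 0.05, highest in leukemias 3 and 4. That of 1604 other protein-coding genes with transcripts of up to 700 bases was -0.09, -0.06, -0.02, 0.01, -0.07 and -0.04. The part of library composition in the histone difference was not tested beyond the rescalings. With values rescaled to TPM, 1 of 60 histone genes rose, near the 2.16% of all genes that did, the median was 0.14 and 53 of 60 were above 0, while the median of all genes was -0.17.

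**Figure D1:**
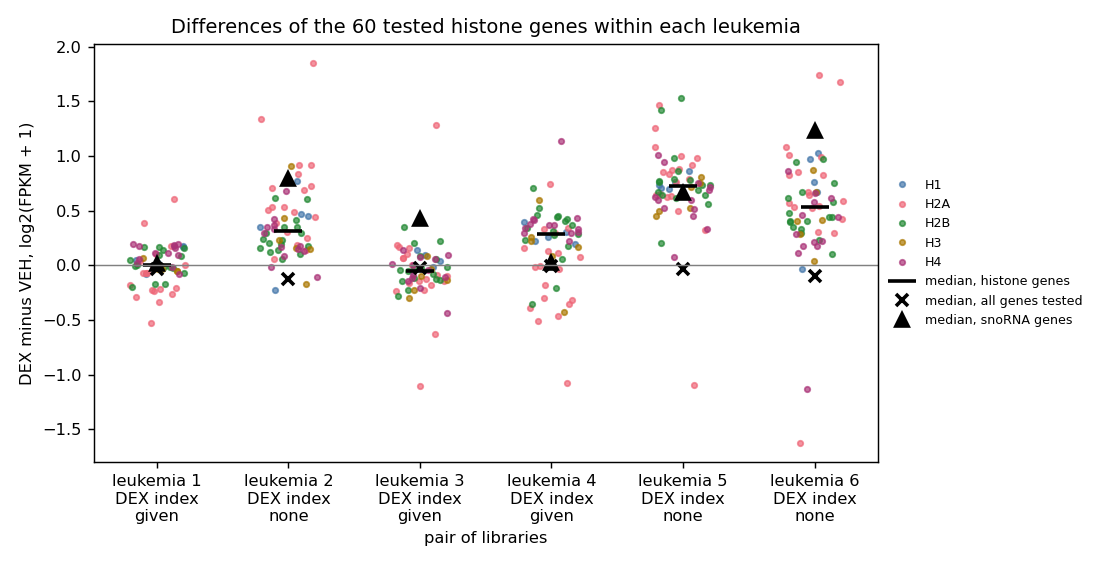
DEX minus VEH differences of the 60 tested histone genes on the log2(FPKM + 1) scale (vertical axis) within each leukemia (horizontal axis, with whether the DEX library's description gives an index number). Each point is a gene, coloured by class, bars are medians of the histone genes, crosses of all genes tested and triangles of snoRNA genes; the histone medians lie between -0.05 and 0.73.

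Markers of host cells differed in level between libraries. The summed level of 10 granulocyte markers was 1523 to 5367 FPKM in DEX and 2303 to 8950 FPKM in VEH libraries. With DEX, 1 of 10 fell, near the 9.28% of all genes that did. Their median difference in leukemias 1 to 6 was -0.75, -1.43, 0.53, 0.28, -0.25 and -1.31. Monocyte and macrophage markers, 5 of them measured, summed to 33.6 to 282 FPKM in DEX and 75.9 to 508 FPKM in VEH libraries. Of these, 0 of 5 rose or fell, and their median difference in leukemias 1 to 6 was -0.20, -0.47, 0.46, 0.07, -0.51 and -0.03. The summed level of 10 erythroid markers was 16.9 to 152.6 FPKM in DEX and 10.1 to 1209 FPKM in VEH libraries, and 0 of 6 tested rose or fell. Their sum was highest by far in the VEH library of leukemia 2, at 1209 FPKM against 152.6 FPKM in its DEX library, and their median difference in leukemias 1 to 6 was -1.69, -2.87, 0.21, -0.17, 0.38 and 0.70. The sum of 7 B-lineage markers was also highest in that VEH library, at 51.3 FPKM against 8.34 FPKM in the DEX library of leukemia 2, and 1.12 to 16.1 FPKM in all other libraries. No marker of these lists was at 0 in all libraries. The part of these cells in the histone difference was not tested.

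Levels were also summed over the genes of a class, which makes them depend less on how reads were divided among copies of like length, though not where copies differ in model length or reads could count for genes of separate classes. The sum over all 65 genes was 30876, 38044, 44035, 40066, 46380 and 32746 FPKM in the DEX libraries of leukemias 1 to 6 and 29582, 30060, 45472, 32770, 28533 and 22921 FPKM in the VEH libraries. The DEX library was the higher in 5 of 6 pairs, all but leukemia 3, and the ranges of the groups overlapped. The mean ratio was 1.24-fold (log2 0.31 ± 0.28, SD, n = 6 leukemias).

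Every class was higher on average. The mean log2 ratio of the class sum was 0.36 ± 0.29 for H1, 0.39 ± 0.47 for H2A, 0.30 ± 0.28 for H2B, 0.23 ± 0.27 for H3 and 0.29 ± 0.22 for H4 (SD, n = 6 leukemias). H2A spread the most, with a log2 ratio of -0.04, 0.69, -0.12, 0.08, 0.90 and 0.83 in leukemias 1 to 6. The make-up of the sum is given as shares: H1 was 9.77 ± 0.55% in DEX and 9.46 ± 0.52% in VEH libraries, H2A 16.8 ± 1.9% and 15.8 ± 1.2%, H2B 30.5 ± 1.4% and 30.8 ± 1.6%, H3 7.61 ± 0.21% and 8.06 ± 0.17%, and H4 35.4 ± 2.4% and 35.9 ± 1.0% (SD, n = 6 each). The H3 share was lower in DEX in 6 of 6 pairs, at 7.92, 7.60, 7.80, 7.36, 7.53 and 7.47% with DEX, against 8.36, 8.11, 8.06, 7.94, 7.89 and 7.97% with VEH, for leukemias 1 to 6. The ranges of the H3 share overlapped by little, with the highest DEX value in leukemia 1. The H1 share was higher in DEX in 5 of 6 pairs, and those of H2A, H2B and H4 in 3 of 6 each. H4 and H2B together made up most of the histone signal in both groups. Their members' gene models are mostly short, and the model lengths the authors used are not given in the sources used here, so shares between classes depend on them.

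**Figure D2:**
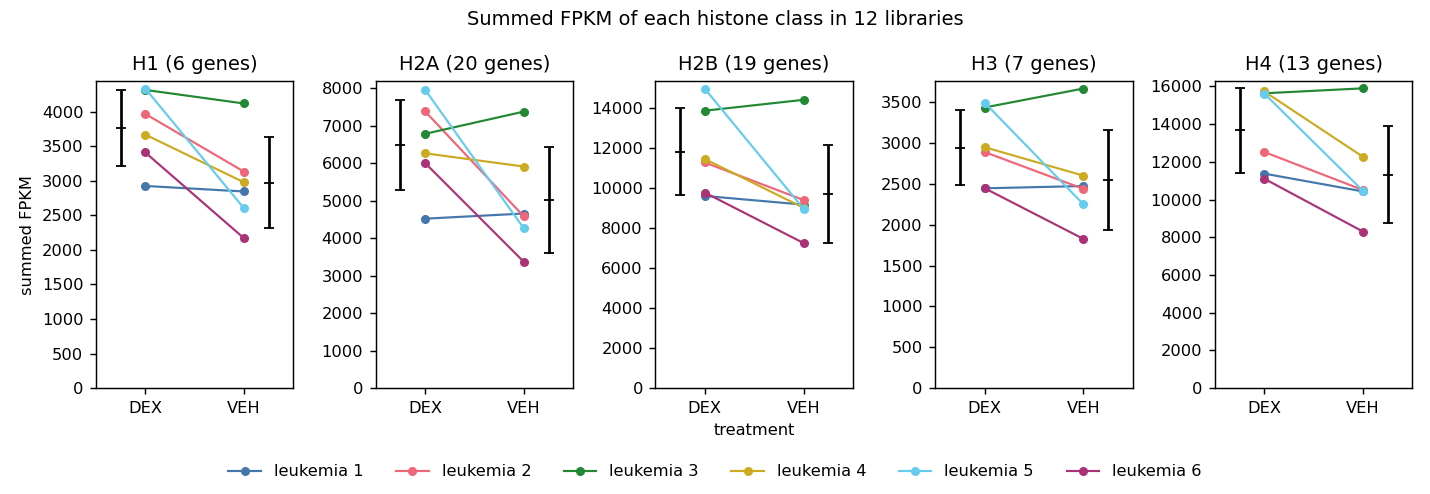
Summed FPKM (vertical axes, from 0) of the 5 histone classes in DEX and VEH libraries (horizontal axis), with a line for each leukemia and, beside the points, the mean and SD of 6 libraries. In leukemias 2, 4, 5 and 6 the DEX point lies above the VEH point in each class, while in leukemias 1 and 3 the 2 points lie close together.

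H1, the linker histone, had 1 of 5 tested genes past the threshold, against 4.27% of all genes rising. It had 5 of 5 above 0, against 39.7% of all genes, with a median of 0.40. Hist1h1b (chr13:21779883-21780625, 1 exon, minus strand, the H1.5 gene) had a lowest, median and highest level of 738, 864 and 1045 FPKM in DEX and 485, 669 and 978 FPKM in VEH libraries. The DEX library was higher in 6 of 6 leukemias, although the ranges overlapped, with a difference of 0.38 ± 0.10 (SE; adjusted p = 0.0421). The gene shares 0% of its 100-base windows with other annotated transcripts. Hist1h1e, the most abundant H1 gene, had 923, 1208 and 1370 FPKM in DEX and 505, 900 and 1243 FPKM in VEH libraries. Its difference of 0.43 ± 0.13 lay just outside the threshold (adjusted p = 0.0559), as did that of Hist1h1d (0.40 ± 0.12, adjusted p = 0.0563; chosen after its values were seen). Hist1h1a differed least, at 0.15 ± 0.11 (adjusted p = 0.413), with 4 of 6 leukemias higher.

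H2A, a core histone that pairs with H2B, had 1 of 19 tested genes past the threshold. This share of 5.26% was near the 4.27% of all genes that rose. Above 0 were 18 of 19, against 39.7% of all genes, with a median of 0.27. Hist2h2ac (chr3:96220361-96220880, 1 exon, minus strand) had 168, 332 and 493 FPKM as lowest, median and highest level in DEX and 111, 264 and 390 FPKM in VEH libraries. It was higher in DEX in 6 of 6 leukemias, with overlapping ranges and a difference of 0.44 ± 0.11 (SE; adjusted p = 0.0327). Hist2h2aa2 was the most abundant H2A gene, with 1211, 1745 and 2114 FPKM in DEX and 922, 1116 and 2082 FPKM in VEH libraries. Its difference was 0.49 ± 0.16 (adjusted p = 0.0757), and its name is swapped with that of Hist2h2aa1 between the file and GENCODE M21. With 88.3% of its windows shared, its split from Hist2h2aa1 is uncertain.

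The largest positive and the largest negative H2A difference belonged to models that share sequence with other genes. Hist1h2ao had the largest positive difference of all histone genes, 0.86 ± 0.31 (adjusted p = 0.102), with 201, 479 and 689 FPKM in DEX and 129, 240 and 396 FPKM in VEH libraries. It shares 92.7% of its windows with other genes and was lower with DEX in leukemias 1 and 3. Hist1h2ap, chosen after its values were seen, shares 92.2% and differed by 0.15 ± 0.13 (adjusted p = 0.47). The sum of this pair was 607, 1128, 935, 974, 1150 and 804 FPKM in DEX libraries of leukemias 1 to 6. In VEH libraries the sum was 685, 558, 1047, 900, 592 and 379 FPKM. How reads were divided between the 2 genes was not tested. Hist1h2aj, annotated as a pseudogene, had the largest negative difference, -0.23 ± 0.37 (adjusted p = 0.712), at 0 to 5.10 FPKM in DEX and 0 to 3.21 FPKM in VEH libraries. Of the abundant genes, Hist1h2ab differed by 0.29 ± 0.12 (adjusted p = 0.148) and Hist1h2ak by 0.33 ± 0.13 (adjusted p = 0.127).

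H2B, the partner of H2A, had 3 of 17 tested genes past the threshold, against 4.27% of all genes rising. Above 0 were 17 of 17, against 39.7% of all genes, with a median of 0.31. Hist1h2bf (chr13:23573736-23574196, 1 exon, minus strand) had 694, 805 and 1064 FPKM as lowest, median and highest level in DEX and 452, 667 and 987 FPKM in VEH libraries. The DEX library was higher in 6 of 6 leukemias with overlapping ranges, by 0.39 ± 0.10 (SE; adjusted p = 0.0356). Hist1h2be had 168, 236 and 307 FPKM in DEX and 108, 158 and 257 FPKM in VEH libraries, higher in 5 of 6 leukemias. Its difference was 0.47 ± 0.13 (adjusted p = 0.0438). The M21 model of Hist1h2be (chr13:23583670-23621124) has 2 exons, of which the first lies within the Hist1h1e model (chr13:23620629-23622558) on the same strand, so reads there could count for either gene.

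Hist2h2bb had 49.2, 1849 and 2378 FPKM in DEX and 29.8, 1315 and 2396 FPKM in VEH libraries, with a difference of 0.40 ± 0.11 (SE; adjusted p = 0.0408) and 5 of 6 leukemias higher. The lowest value in each group was that of leukemia 4. Its identifier stands for a noncoding model in M21, so the coding gene is not certain. Hist1h2bk, the most abundant H2B gene, had 1260, 1678 and 2165 FPKM in DEX and 1071, 1403 and 1991 FPKM in VEH libraries and differed by 0.19 ± 0.10 (adjusted p = 0.233). Hist1h2bb was just outside the threshold, at 0.32 ± 0.09 (adjusted p = 0.0519), with 6 of 6 leukemias higher.

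H3, a core histone that pairs with H4, had 0 of 6 tested genes past the threshold, against 4.27% of all genes rising. At an unadjusted p under 0.05, 3 of 6 were higher, against 9.69% of all genes. Above 0 were 6 of 6, against 39.7% of all genes, with a median of 0.20. Hist1h3b had 565, 724 and 881 FPKM as lowest, median and highest level in DEX and 427, 597 and 755 FPKM in VEH libraries. Its difference was 0.26 ± 0.10 (SE; adjusted p = 0.114), with 5 of 6 leukemias higher. Hist1h3c differed by 0.18 ± 0.08 (adjusted p = 0.167) and Hist1h3a by 0.22 ± 0.10 (adjusted p = 0.16). A p that misses the threshold does not show that H3 genes differ from the other classes, and no test between classes was made.

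H4 had 3 of 13 tested genes past the threshold, against 4.27% of all genes rising. Above 0 were 13 of 13, against 39.7% of all genes, with a median of 0.25. Hist1h4c (chr13:23697635-23698454, 1 exon, minus strand) had 1302, 1653 and 1845 FPKM as lowest, median and highest level in DEX and 848, 1228 and 1704 FPKM in VEH libraries. It had the smallest p of all histone genes, with 6 of 6 leukemias higher, overlapping ranges and a difference of 0.36 ± 0.09 (SE; adjusted p = 0.0259). Hist1h4d, the most abundant histone gene in the table, had 1957, 2310 and 2861 FPKM in DEX and 1424, 1847 and 2754 FPKM in VEH libraries. It was higher in 6 of 6 leukemias by 0.32 ± 0.09 (adjusted p = 0.0436). Hist1h4h had 1333, 1683 and 2143 FPKM in DEX and 946, 1225 and 1798 FPKM in VEH libraries and was higher in 5 of 6 leukemias by 0.37 ± 0.10 (adjusted p = 0.0433). The abundant Hist1h4f (0.30 ± 0.10, adjusted p = 0.0751) and Hist1h4a (0.13 ± 0.09, adjusted p = 0.355) did not pass.

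**Figure D3:**
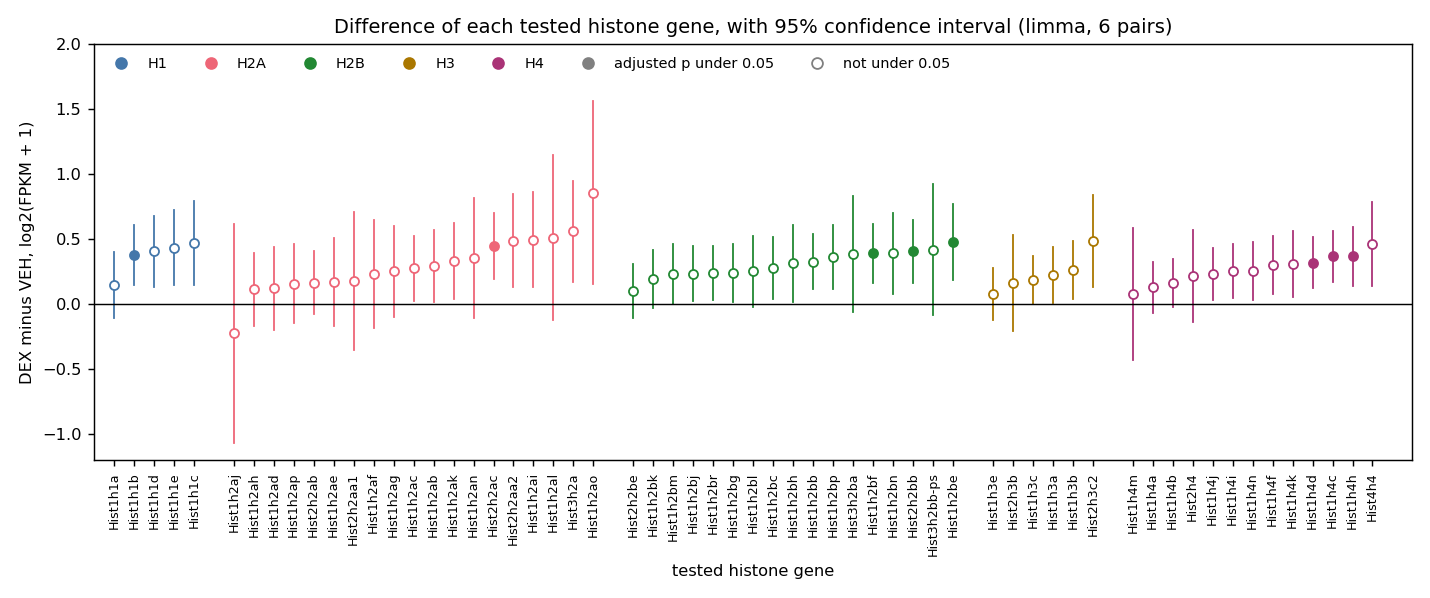
DEX minus VEH difference of each of the 60 tested histone genes on the log2(FPKM + 1) scale (vertical axis), with its 95% confidence interval from limma over 6 pairs, by class along the horizontal axis. Filled points are the 8 genes past the threshold; Hist1h2aj is the only point below 0.

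The differences were also counted by features that the choice of genes did not use, with no test between the sets. The background over all genes tested was 4.27% rising and 39.7% above 0. Of 23 tested genes with under 20% of their 100-base windows found in another gene, 23 were above 0, 6 rose and the median was 0.33. Of 37 with at least 20% shared, 36 were above 0, 2 rose and the median was 0.25. The 41 tested genes with an annotated stem-loop had a median of 0.27 with 6 rising, and the 19 without had a median of 0.28 with 2 rising. By place, 5 of 25 tested genes in the stretch of the Hist1 cluster at chr13:23531050-23934851 rose and 1 of 21 in that at chr13:21715763-22043676 rose, with medians of 0.28 and 0.25. The shares that rose among those 37 and those 21 genes, 5.41% and 4.76%, were near the background. The difference was higher in all 6 leukemias for 9 of 60 histone genes, against 5.97% of all genes.

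Of the germ-cell histone genes, Hist1h1t and Hist1h2aa were near 0. The genes Hist1h1t, Hist1h2aa and Hist1h2ba, known from the testis, were below the filter and not tested. Hist1h1t was at 0.08 to 0.50 FPKM in DEX and 0.16 to 0.76 FPKM in VEH libraries, and Hist1h2aa at most at 0.02 FPKM in any library. Hist1h2ba was at 8.39 FPKM in the DEX and 4.74 FPKM in the VEH library of leukemia 5 and at 6.42 FPKM in the DEX and 1.44 FPKM in the VEH library of leukemia 6, and at most at 1.13 FPKM in the other 8 libraries. The 3 genes known for polyadenylated forms had a median difference of 0.28, with 0 of 3 past the threshold. They were Hist1h1c (0.46 ± 0.14, adjusted p = 0.0625), Hist1h2bc (0.28 ± 0.11, adjusted p = 0.115) and Hist2h2be (0.10 ± 0.09, adjusted p = 0.49), the last at 3.27 to 5.76 FPKM in DEX and 3.10 to 4.86 FPKM in VEH libraries.

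Differences between leukemias were wider than that with DEX for several histone genes. By the F test of limma on the leukemia terms, 33 of 60 histone genes differed between leukemias, against 51.1% of all genes, so the share was near the background. By class these were 0 of 5 of H1, 7 of 19 of H2A, 13 of 17 of H2B, 3 of 6 of H3 and 10 of 13 of H4. The following genes were chosen after their values were seen, except Hist2h2bb.

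Hist2h2bb was at 49.2 FPKM in the DEX and 29.8 FPKM in the VEH library of leukemia 4, and between 1292 and 2396 FPKM in the other 10 libraries (F test of limma, adjusted p = 8.41e-07). Hist1h4m was at 756 to 957 FPKM in DEX and 673 to 948 FPKM in VEH libraries of leukemias 1 to 3, and at 11.9 to 49.8 FPKM in DEX and 22.1 to 36.6 FPKM in VEH libraries of leukemias 4 to 6 (adjusted p = 1.3e-05). Both libraries of a leukemia fell on the same side in each case. Hist1h4n, another H4 gene of the same stretch of chromosome 13, was highest where Hist1h4m was low in leukemias 4 and 5, at 1013, 1004, 1388, 2425, 2452 and 1404 FPKM in DEX and 948, 948, 1319, 1972, 1458 and 1201 FPKM in VEH libraries of leukemias 1 to 6.

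Hist1h4m shares 88.1% and Hist1h4n 80.7% of windows with other genes, and the sum of the pair was 1415 to 2490 FPKM in DEX and 1228 to 2267 FPKM in VEH libraries, a far narrower range than that of Hist1h4m. The division of reads between these copies was not tested. Hist1h2al, annotated as a pseudogene, was at 8.09 to 19.3 FPKM in DEX and 6.60 to 22.8 FPKM in VEH libraries of leukemias 1, 4 and 5, and at 169 to 611 FPKM in DEX and 160 to 261.65 FPKM in VEH libraries of leukemias 2, 3 and 6 (F test of limma, adjusted p = 7e-05). Hist3h2ba was at 1.26 FPKM in the DEX and 1.60 FPKM in the VEH library of leukemia 4, against 27.5 to 100.8 FPKM in DEX and 31.7 to 71.3 FPKM in VEH libraries of the other leukemias (adjusted p = 4.23e-05). Leukemia 4 was thus low for genes on separate chromosomes, and Hist1h2ad was also low there, at 52.7 FPKM in the DEX and 75.3 FPKM in the VEH library.

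**Figure D4:**
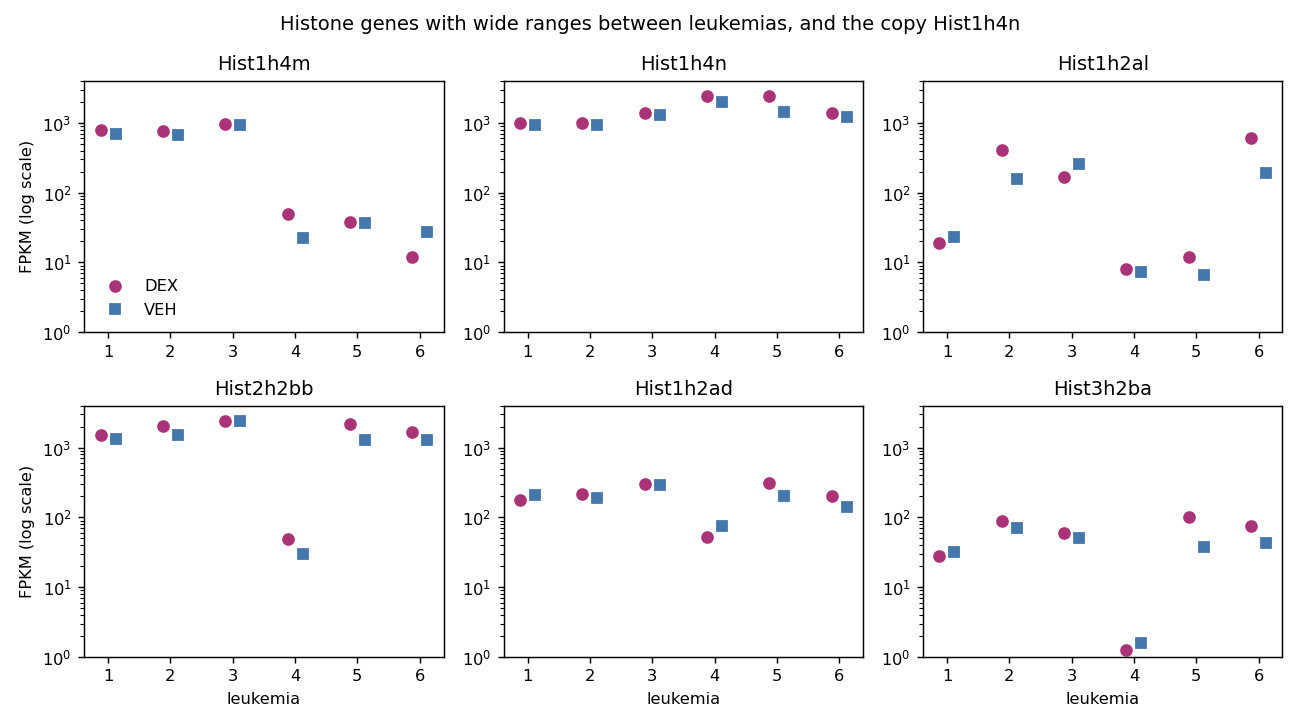
FPKM (vertical axes, log scale) of 6 histone genes in the DEX and VEH library of each leukemia (horizontal axes). The 2 libraries of a leukemia lie on the same side of the wide gaps, with Hist2h2bb and Hist3h2ba low in leukemia 4 and Hist1h4m low in leukemias 4 to 6, where Hist1h4n is at 1201 to 2452 FPKM.

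Other genes of histone supply were counted in the same fit, against the same backgrounds of 4.27% rising and 9.28% falling. Of 9 tested histone variant genes, whose names lie outside Hist1 to Hist4, 2 rose and 0 fell, with a median of 0.18. Cenpa, the centromeric H3 variant, averaged 68.8 ± 15.3 FPKM in DEX and 51.5 ± 9.4 FPKM in VEH libraries (SD, n = 6 each) and rose by 0.40 ± 0.07 (SE; adjusted p = 0.0074). H2afv rose by 0.35 ± 0.08 (adjusted p = 0.0228).

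Of 21 genes for transcription, processing and decay of histone mRNA, 0 rose, 2 fell and 19 did not pass, with a median of -0.04. The share that fell was near the 9.28% of all genes that did. Slbp, the stem-loop binding protein gene, averaged 91.0 ± 11.8 FPKM in DEX and 113 ± 9.3 FPKM in VEH libraries (SD, n = 6 each) and fell by 0.32 on the log2 scale, with 0 of 6 leukemias higher (adjusted p = 0.0308). Ncbp2, a subunit of the nuclear cap-binding complex, fell by 0.35 (adjusted p = 0.0259). Npat (-0.19 ± 0.08, adjusted p = 0.15), which activates histone gene transcription, did not pass, nor did Casp8ap2 (-0.25 ± 0.10, adjusted p = 0.15), Lsm10 (-0.10 ± 0.11, adjusted p = 0.556) and Lsm11 (-0.24 ± 0.08, adjusted p = 0.072). Of 19 histone chaperone genes, 0 rose and 2 fell, again near the background of 9.28%, with a median of -0.13. The 2 were Nasp, lower by 0.35 (adjusted p = 0.0153), and Ipo4, lower by 0.35 (adjusted p = 0.0361).

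Genes of the cell cycle were counted in the same way, against the same backgrounds of 4.27% rising and 9.28% falling. Of 46 genes of S phase and DNA replication, 12 fell and 0 rose, with a median of -0.18. Their median in leukemias 1 to 6 was -0.30, -0.37, -0.14, -0.01, -0.26 and -0.05. Pcna, the sliding clamp of replication, averaged 242 ± 31.3 FPKM in DEX and 301 ± 28.3 FPKM in VEH libraries (SD, n = 6 each) and fell by 0.32 (adjusted p = 0.0456). Mcm4, a helicase subunit, fell by 0.54 (adjusted p = 0.00794). Of 22 genes of G2 and M phase, 8 rose and 0 fell, with a median of 0.27, among them Ccnb2, a mitotic cyclin (0.44 ± 0.07, adjusted p = 0.00553). Mki67, a proliferation marker, averaged 229 ± 68.2 FPKM in DEX and 195 ± 39.1 FPKM in VEH libraries and did not pass (adjusted p = 0.27). The median of the G2 and M list in leukemias 1 to 6 was 0.38, -0.08, 0.36, 0.29, 0.54 and -0.11. The histone medians in the same order were 0.00, 0.32, -0.05, 0.28, 0.73 and 0.53. The part of the cell cycle in the histone difference was not tested.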

How the data were processed

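Marrow RNA was read as stranded total RNA libraries with paired reads of 100 bases, per the labels' protocols. The authors deposited FPKM on a linear scale for 38339 genes in 12 libraries; the submitters' processing notes name mm10 and the tools RSEM, edgeR and Bowtie2 (version 2) but not what each did, and the annotation is not given in the sources used here. The file has no counts, so no count test was used.

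Values were analysed as log2(FPKM + 1), a scale that understates changes of low genes, in limma 3.58.1 (R 4.3.3), with the variance trend on, 5 residual degrees of freedom and a prior of 3.99. Tests were two-sided and adjusted by Benjamini-Hochberg over the 12358 genes that reached 1 FPKM in 6 or more of 12 libraries. Errors of differences are moderated SE. Groups came from the treatment label. Pairs came from the leukemia code shared by both titles, so both libraries of a pair carry the same transplanted leukemia; libraries of a pair correlated at 0.55 to 0.82 across genes after removal of group means, against at most 0.21 between leukemias. Nothing says that the recipients of a pair were treated together, and each arm is 1 mouse. The treatment p-values set the mean difference against the spread of the within-pair differences between leukemias, which also holds variation between mice. The F test p-values set differences between leukemias against the spread within a leukemia left after removal of the treatment term. The fit was tested on simulated data.

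The histone genes and the gene lists were chosen with earlier results of these data known. Histone genes named are the 3 with the highest mean in each class, those past the threshold, the largest differences in each direction, and 6 fixed by name (Hist1h1t, Hist1h2aa, Hist1h2ba, Hist1h1c, Hist1h2bc and Hist2h2be); of the other lists, members with the smallest p and some fixed by name. Genes were matched to GENCODE M21 (GRCm38) by identifier for 63 and by symbol for 2 of 65. The count of shared windows is the share of a transcript's 100-base windows found in another annotated gene. Reads of near-identical copies cannot be assigned with certainty. Alternatives covered the pseudocount, the filter, scaling, the block, the trend, sample weights, each leukemia left out and the sets by index number; rescaling to the sum without small RNA and the term for the index number were added after seeing the data.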

Additional observations from a re-analysis of the deposited data

Results flagged for a closer look

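In each group of 6 libraries, the highest or lowest value was compared with its nearest neighbour, and values whose gap to it passed Dixon's critical value for 6 are given here. Of 93 sets of 6 values examined, 5 met this, and chance alone gives about 5% of sets.

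Hist1h1c was low in the DEX library of leukemia 1, at 403 FPKM against 695 to 855 FPKM in the other DEX libraries. Hist1h2aj, annotated as a pseudogene, was at 5.10 FPKM in the DEX library of leukemia 2 and at 0 to 1.43 FPKM in the other DEX libraries.

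The other values were those of the VEH library of leukemia 3. Hist1h3a was at 548 FPKM there and at 319 to 386 FPKM in the other VEH libraries, and Hist1h4f at 2452 FPKM against 1302 to 1659 FPKM. The summed FPKM of H2B was 14411 there, against 7253 to 9402 in the other VEH libraries. Leukemia 3 is the pair in which the summed histone level was lower in the DEX than in the VEH library. The cause was not tested.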

How the results depend on the processing

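The count of 8 histone genes that rose depends on the settings; 0 histone genes fell under any setting run. It was 0 of 65 with no filter, against 0.654% of all genes, and 1 of 60 with values rescaled to TPM, against 2.16%. With quantile normalization it was 2 of 60, which is not above the 5.27% of all genes. Limma without its trend gave 4 of 60, against 3.88%, and sample quality weights gave 14 of 60, against 6.64%. Leukemias 1, 3 and 4 alone gave 0 of 60, against 3.20%, and leukemias 2, 5 and 6 alone 25 of 61, against 2.15%. Without the leukemia block, that is with the pairing ignored, the count was 0 of 60, against 0.283% of all genes. There 12 were higher at an unadjusted p under 0.05, for which no share of all genes was computed. Leaving out a leukemia gave 0 to 20, against 1.89% to 4.30% of all genes. The count was 0 without leukemia 2, 4, 5 or 6. It was 4 of 61 without leukemia 1, against 2.17%, and 20 of 61 without leukemia 3, against 3.94%. The median difference stayed above 0 throughout, at 0.08 to 0.51. Pseudocounts of 0.1 and 5, a mean filter of 5 FPKM and the sum without small RNA gave 8, against 3.71% to 4.76% of all genes. Median-of-ratios scaling gave 11 of 60, against 5.53%.

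The TPM scaling moved the median of all genes to -0.17, against -0.05 as deposited, with 267 genes rising and 1820 falling; relative to all genes the histone median was then higher by a like amount. Median-of-ratios scaling gave 683 rising and 718 falling. Hist1h4a (-0.012) and Hist2h2be (-0.011) fell below 0 with TPM, Hist1h2aj ranged over -0.53 to 0.050 with a leukemia left out, being above 0 without leukemia 6, and Hist1h2ab (-0.0059), Hist1h2ak (-0.000696) and Hist1h3a (-0.0043) were below 0 in leukemias 1, 3 and 4 alone. The count that differed between leukemias, 33 of 60 in the main fit, was near the 51.1% of all genes there. It was 17 with no filter, 51 in leukemias 1, 3 and 4 alone and 19 in leukemias 2, 5 and 6 alone. With a leukemia left out it was 16 to 38. The share of all genes was not computed for these settings, so the changes are not read as particular to histone genes. Settings with fewer leukemias or more genes tested also differ in power, and the cause of the changes was not tested. Depth is known only as an estimate, so no counting interval is given.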
